A study of Mus musculus with 2 samples.

Results

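The probes described here are the 736 on a mouse expression array whose names give a stretch of chromosome 11 and a strand letter, and no gene. They were taken as every probe other than a control whose name began with that chromosome, and they carry 184 different region names out of 4610 on the whole array, where 16194 probes are named by a region. The named stretches run from 131 to 164222 bases, with a median of 11176, and have 1 to 10 probes each, with a median of 3. Many overlap, also across strands, and joining those that share bases gave 82 separate loci between positions 3521324 and 120130099 of the mm9 build, on which the array's grid was annotated. The letter was F for 356 probes and R for 380. The files do not spell out whether it names the strand of the probe or of its target, so it is kept as a letter below.

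Arrays of this kind carry such probes to survey long noncoding RNAs, transcripts that are made by RNA polymerase II, are often spliced and capped like messenger RNAs, and encode no known protein. Some act on neighbouring genes, some scaffold chromatin or RNA-binding proteins, and for many no function is known. In pluripotent cells the promoters of several are bound by the core pluripotency factors, and their levels change as the cells leave the stem cell state. The probe sequences and the genes near the regions were not used here, so each member is identified by its coordinates.

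RNA of wild-type (WT) mouse embryonic stem cells (ESCs) was compared with RNA of ESCs labelled as overexpressing HDAC6, a mainly cytoplasmic deacetylase of tubulin and other proteins. Both were B6C3F1 cells at passage 26 and grew with LIF on mouse embryonic fibroblasts whose division had been stopped with mitomycin C. The construct, its promoter and the number of clones were not given in the sources used here. Each of 2 arrays held WT RNA in Cy3 and overexpression RNA in Cy5. The dyes were never exchanged, so a dye effect of a probe and an effect of the cells cannot be told apart. The arrays are labelled as biological replicates, yet nothing else shows that they came from separate cultures, and the p-values may therefore measure only a technical spread.

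Between 68 and 68.8% of spots were well above background in each channel of each array, and no spot was saturated. The Hdac6 probe did not check the label, with log2 ratios of overexpression over WT of 0.16 and -0.038 (limma adjusted p = 0.67). All 10 ESC markers listed were well above background in WT, and 3 were higher and 3 lower with overexpression. The 11 fibroblast markers were all higher, with a median log2 ratio of 1.14 and a summed signal of 99100 to 115400 in WT and 218900 to 279700 with overexpression. All 10 primitive endoderm markers were higher as well, with a median of 3.38 and summed signals of 9100 to 9700 and 114800 to 117900. No marker of these lists was below background in WT, and the part of these cell types in the results below was not tested. In bulk RNA, fewer cells of a type and less RNA per cell cannot be told apart.

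A region probe was taken as measured when one channel or the other was well above background on both arrays, which held for 450 of the 736 probes (61.1%) in 156 names and 69 loci. Over all region probes of the array the share was 61.4%. Of the 286 probes that were not measured, none is counted below. At the edge of the filter, the dimmest probes kept had a brighter-channel signal of 43.3, 44.1 and 44.4 intensity units, and the brightest ones left out had 49.6, 46.6 and 45.2. The filter keeps a probe that is visible in 1 condition alone, and 32 members were of that sort: 9 were not well above background in WT on either array and 23 were not with overexpression. Both channels were well above background on both arrays for 393.

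With HDAC6 overexpression, more region probes of chromosome 11 were lower than higher. By limma with Benjamini-Hochberg adjustment over all 38472 measured probes, 179 of the 450 were lower (39.8%) and 64 were higher (14.2%) at an adjusted p under 0.05. The same test called 22.7% of all probes lower and 22.8% higher, so the share of lower calls on chromosome 11 stood above the background and the share of higher calls below it. By size alone, 31 members were 2-fold lower or more on each array (6.89%, against 3.54% of all probes) and 9 were 2-fold higher or more (2.0%, against 2.72%). Among the 393 members visible in both channels, 149 were lower (37.9%) and 46 higher (11.7%). For region probes of other chromosomes that passed the same filter, 14.5% were lower and 28.4% higher. The excess of lower calls was thus also there among probes visible in both channels. These 393 still held dim probes, with 119 in the dimmest of the 3 brightness classes used below.

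The median log2 ratio of the 450 probes was -0.21, with -0.18 on replicate 1 and -0.23 on replicate 2, and the quartiles were -0.63 and 0.15. The median over all probes of the array was 0.019. Below 0 on both arrays lay 253 members (56.2%), above 0 on both lay 138 (30.7%), and 59 differed in sign. Across the 450 probes, which share the same 2 arrays, the ratios of the arrays correlated at r = 0.894, and their difference had an SD of 0.33 on the log2 scale.

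**Figure D1:**
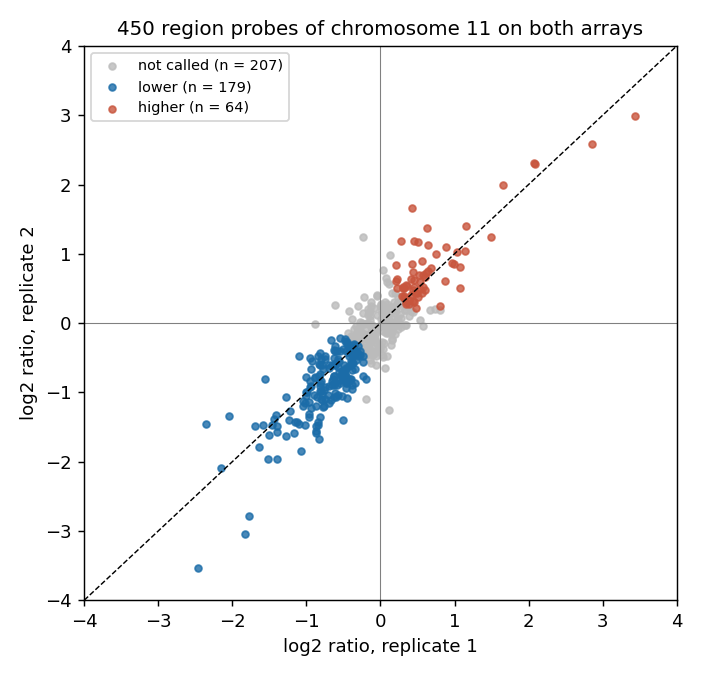
Log2 ratio of overexpression over WT for each of the 450 measured probes on replicate 1 (horizontal) and replicate 2 (vertical), coloured by call at an adjusted p under 0.05; the dashed line marks equal values. The 179 lower probes form a dense group below 0, while the 64 higher ones are fewer and include the 4 points above 2 on both arrays.

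Region probes elsewhere had the opposite balance. On the other chromosomes, 9501 measured region probes had a median of 0.14, with 15.7% lower and 29.6% higher. Chromosome 11 had the lowest median of the 20 chromosomes for region probes. Chromosome 8 came next at -0.0048, and chromosome 1 was the highest at 0.35. On chromosome 8 too more region probes were lower than higher, 26.9% against 20.5%. The difference between chromosome 11 and the other chromosomes was -0.35 for the mean of both arrays, and between -0.35 and -0.34 on each array alone. Probes are not replicates, so this difference is a description and has no test.

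The gene-named probes of chromosome 11 lay lower still. Through RefSeq accessions, 1786 measured probes of 1341 genes were placed on chromosome 11, and their median was -0.50 (-0.51 and -0.48 by array), against -0.032 for the gene probes of other chromosomes. Of these gene probes 64.1% were lower and 8.79% higher. The order at both ends was the same for genes, with chromosome 8 second lowest at -0.25 and chromosome 1 highest at 0.26. The shift of the region probes was thus shared with the annotated genes of the same chromosome. The arrays measured RNA, and no measurement of DNA was used here.

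**Figure D2:**
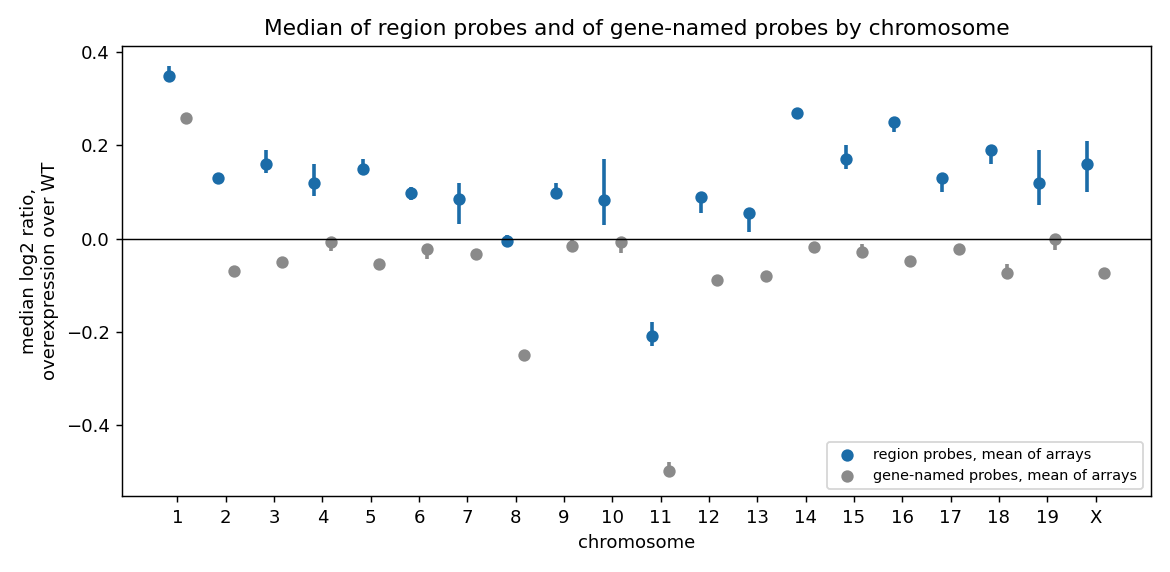
Median log2 ratio of overexpression over WT for region probes (blue) and gene-named probes (grey) of each chromosome; dots are medians of the mean of both arrays and vertical lines span the medians of the single arrays. Chromosome 11 is the lowest of the 20 for both kinds of probe, at -0.21 and -0.50.

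Named genes that the gene reference classed as long noncoding RNA gave another view. That class was taken as given, and it also held Rnf227 and Ube2d-ps. On chromosome 11, 34 measured probes of 30 such genes had a median of -0.27, with 14 lower (41.2%) and 4 higher (11.8%). On the other chromosomes 293 such probes had a median of 0.068, with 22.2% lower and 29.0% higher. 2410004I01Rik had the lowest ratios, -2.82 and -2.96 on the 2 arrays (adjusted p = 9.2e-05 by limma), and Gm12216 followed with -1.89 and -2.18. Dlx4os, which lies antisense to the homeobox gene Dlx4, was lower with a mean of -1.16 ± 0.23 (SD, n = 2). Snhg16, a host gene of small nucleolar RNAs, was slightly lower at -0.36 and -0.46 (adjusted p = 0.022). Tug1, a widely expressed long noncoding RNA, had ratios of 0.25 and 0.33 and was not called (adjusted p = 0.061). In the other direction, Mir22hg, the host transcript of miR-22, was higher with 0.65 and 0.82, and Gm53 with 2.03 and 2.11.

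Members of every brightness class had a median below 0. When all region probes were divided by mean signal into 3 classes of equal size, the chromosome 11 members had medians of -0.17 in the dim class, -0.29 in the middle one and -0.13 in the bright one. On the other chromosomes the 3 medians were 0.13, 0.16 and 0.13.

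Along the chromosome the loci did not move as a block. Of the 69 measured loci, 22 had lower calls and no higher one, 20 had higher calls and no lower one, 16 had both, and 11 had none. Many of the loci with higher calls alone had few measured probes. With 5 or more measured probes, 17 loci had lower calls alone, 7 had higher calls alone, 14 had both and 2 had none. Loci of other chromosomes were not counted in this way. When every locus was given equal weight, 34 lay below 0 on both arrays and 27 above, and the median of the locus means was -0.082. The 10 loci with most measured probes held 169 of the 450 probes and 77 of the 179 lower calls. Among the 40 loci with 5 or more measured probes, lower calls made up at least as many probes as all others together in 15, and higher calls did so in 4. Probes with the same name read the same stretch and strand, so their number is not a number of replicates.

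In windows of 10 Mb the lowest median was that of 80 to 90 Mb, at -0.61, where 15 of 21 probes were lower and 0 higher. The windows of 30 to 40 Mb (-0.38) and 100 to 110 Mb (-0.37) came next. The last stretch, from 120 Mb on, had the highest median, 0.17, with 5 of 16 probes higher and 0 lower. The window of 90 to 100 Mb, which had the most probes, held both kinds, with 36 lower and 20 higher of 86.

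**Figure D3:**
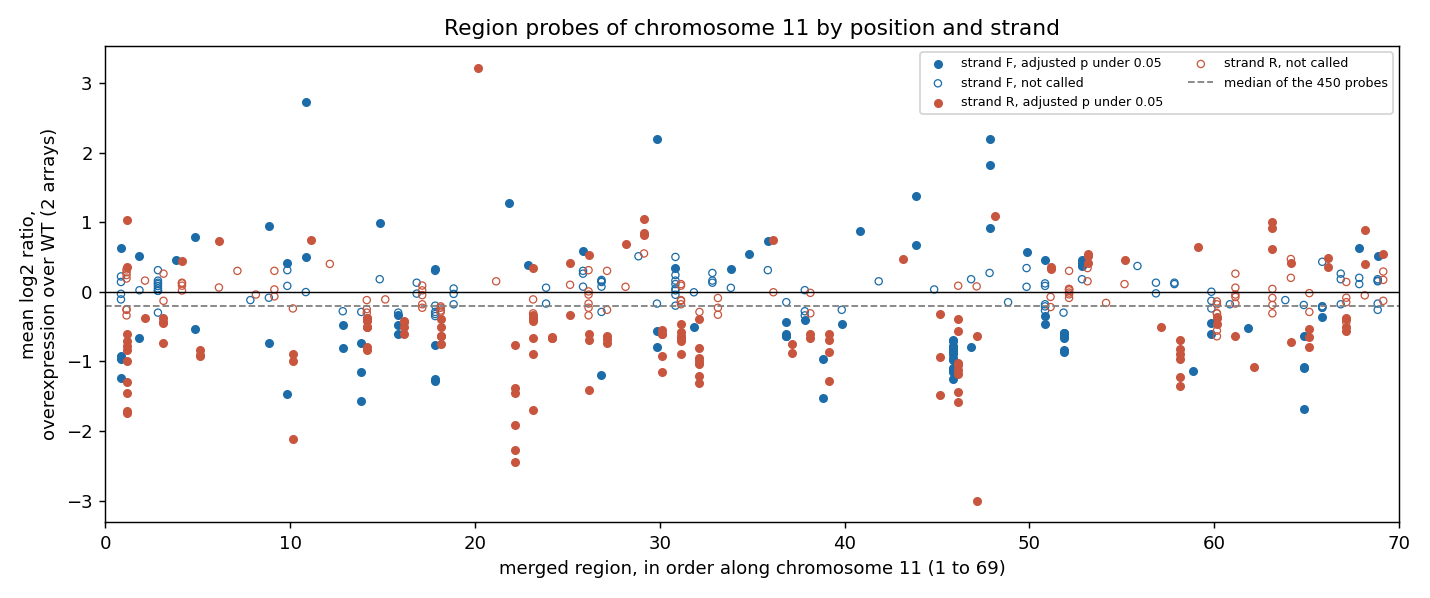
Mean log2 ratio of the 2 arrays for each measured probe, placed by its locus in order along chromosome 11, with strand F in blue and strand R in orange; filled points are called at an adjusted p under 0.05, and the dashed line marks the median of the 450 probes. Loci with long columns of lower points alternate with loci around or above 0.

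The strands differed. The 253 probes with the letter R had a median of -0.31, with 46.6% lower and 12.6% higher, and the 197 with the letter F had a median of -0.043, with 31.0% lower and 16.2% higher. On the other chromosomes the medians of R and F were 0.13 and 0.16. In the 47 loci measured on both strands, the R mean was below the F mean in 31 and above it in 16, with a median difference of -0.19 (-0.11 with normexp background correction and loess, where R was again below F in 31), and in 40 of them the difference had the same sign on both arrays. Of the names with 3 or more measured probes, 16 of 79 had every probe lower, 13 of 48 on strand R and 3 of 31 on strand F, and 0 had every probe higher. The same count was not made for names on other chromosomes, so no background share stands beside it.

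Opposite strands of the same stretch lay on the same side of 0 in most pairs, but not in all. In 45 pairs of names with identical coordinates and opposite letters, both means were below 0 in 20, both above 0 in 10 and on opposite sides in 15. The side of 0 takes no account of size or call, and some of these means lay near 0. Across these pairs, which share position and arrays, the means correlated at r = 0.2. Probes with the same name lay closer together than names did along the whole chromosome. Their pooled SD was 0.37 on the log2 scale, against 0.57 between the means of the 108 names with 2 or more probes. The 0.57 is not the spread between opposite strands of the same stretch. Even so, 8 names held probes called in both directions.

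**Figure D4:**
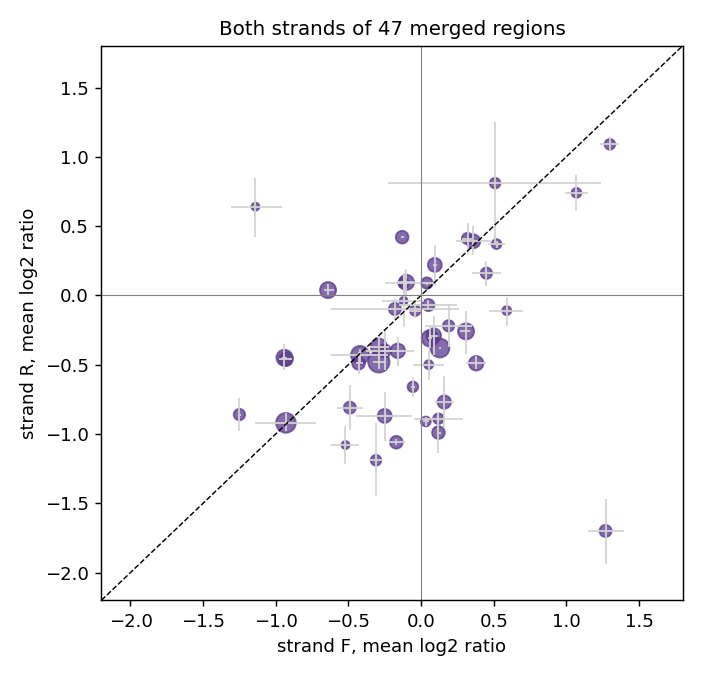
Mean log2 ratio of overexpression over WT on strand F (horizontal) and strand R (vertical) for the 47 loci measured on both; larger dots have more probes, grey bars span the 2 arrays and the dashed line marks equal values. Points below the line, 31 of 47, have a lower R mean, and the point at the lower right is the locus with F at 1.27 and R at -1.70.

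The locus with the most lower calls was chr11:95627874-95640824, where 21 of 22 measured probes were lower. Its F and R means were -0.93 and -0.92, so the strands lay at the same level. One of its F probes gave signals of 24100 and 28500 in WT and of 12400 and 11200 with overexpression on the 2 arrays, a log2 ratio of -0.96 and -1.35 (mean -1.16 ± 0.28 SD, n = 2; limma adjusted p = 0.002). The overexpression signals lay below both WT signals. A nested name, chr11:95630200-95631470 on strand F, had 3 probes that were all lower, with means from -0.85 to -0.70. The single probe of the locus that was not called is on strand R and had signals of 615 and 633 in WT and 692 and 634 with overexpression.

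Just beyond it, chr11:95644899-95658549 held the lowest ratio of all members. That strand R probe read 79.3 and 102 in WT and 14.4 and 8.8 with overexpression, where it was not well above background on either array. The fall is therefore a bound, at least 1.96-fold (limma adjusted p = 0.00091). The other measured R probe of the same name did not follow, with 1000 and 1040 in WT and 1090 and 1060 with overexpression (adjusted p = 0.56). The ratio of the lowest member thus rests on 1 probe, and another probe with its name stayed near 0.

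Before the locus with the most lower calls, chr11:95561419-95587949 joined 2 names that overlap only at their ends. The 3 R probes, of chr11:95561419-95574068, were all lower, with means from -1.49 to -0.32. The 1 F probe, of chr11:95573399-95587949, had a mean of 0.033. Strand and position cannot be told apart here. The lowest of the R probes fell from 411 and 382 in WT to 156 and 128.

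The locus chr11:96111499-96126224 held the highest ratios among probes visible in both conditions, and 4 of its 5 measured probes were higher. A probe of chr11:96112907-96125798 on strand F read 116 and 146 in WT and 491 and 716 with overexpression, with log2 ratios of 2.08 and 2.30 (mean 2.19 ± 0.16 SD, n = 2; limma adjusted p = 0.00023). A second probe of that name rose from 54.2 and 60.0 to 170 and 238. On the opposite strand of the wider region, the 1 measured R probe rose from 413 and 458 to 913 and 942, so both strands were higher here. Signals of the 2 conditions did not overlap for these 3 probes, but all 3 were described as called higher, so this adds no support.

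Another locus of the same window, chr11:97505439-97522274, was higher by less. Of its 10 measured probes 7 were higher and 0 lower, the mean over probes was 0.38, and every probe mean lay between 0.15 and 0.54. On replicate 1 the mean was 0.26 and on replicate 2 it was 0.49. With normexp and loess the mean was 0.24, and 5 of 10 were higher. With median centring the mean was 0.36, and only 3 of 10 were higher, so several calls lay close to the threshold. Its neighbour chr11:97457180-97487074 differed by strand. On strand F 6 of 7 probes were lower, with means from -0.86 to -0.30, and on strand R 0 of 7 were called, with means from -0.089 to 0.30. The F probe with the lowest mean read 1200 and 1340 in WT and 706 and 689 with overexpression. The probe values of its strands did not overlap, which was so in 2 of the 22 loci with 3 or more probes on each strand. In the other of these 2 loci, 0 of 6 probes were called, with F and R means of 0.19 and -0.22.

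The locus with the most measured probes was the first on the chromosome, chr11:3521324-3554450, with 26 measured, 12 lower and 3 higher. Within it, chr11:3538125-3554450 on strand R had 9 measured probes, all lower, with means from -1.74 to -0.60. The lowest read 336 and 437 in WT and 117 and 112 with overexpression (limma adjusted p = 0.00077). On strand F of the same coordinates, 0 of 5 probes were lower and 1 was higher.

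The 3 names nested inside this stretch on strand R differed. All 3 probes of chr11:3539787-3548811 on strand R had positive means, 0.24 to 0.36, and 1 was called. One of 3 probes of chr11:3548300-3549676 on strand R rose from 163 and 172 to 333 and 351 (adjusted p = 0.0013 by limma). The 3 probes of chr11:3542140-3546888 were not called, with means from -0.34 to -0.25, and with normexp and loess all 3 were lower (-0.38 to -0.26). The overlapping name on strand F, chr11:3521324-3539552, had 3 probes, all lower, with means from -1.24 to -0.93. So 1 locus of 33127 bases held both lower and higher calls on strand R.

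The widest gap between strands was at chr11:53592946-53672731. Its 1 measured F probe read 111 and 95.1 in WT and 246 and 250 with overexpression, with log2 ratios of 1.15 and 1.40 (adjusted p = 0.0011 by limma). All 6 R probes were lower, with a mean of -1.70. The lowest of them, in chr11:53596919-53672731, went from 74.5 and 109 to 20.9 and 13.2, not well above background, and so was at least 1.88-fold lower. Among R probes visible in both conditions, one fell from 237 and 291 to 153 and 156. With normexp background correction and loess the strand means were 0.82 and -0.85, of the same signs.

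The other strand gaps rested on few probes on one side. At chr11:102983499-102994170 all 6 R probes were lower, with means from -1.36 to -0.70, and neither of the 2 F probes was called (0.11 and 0.13). The R mean was -0.99, and with normexp and loess -0.58. At chr11:16831925-16851125 the 3 R probes were lower within a narrow range, -0.93 to -0.84, while the 2 F probes went opposite ways, one from 352 and 365 in WT to 251 and 241 and the other from 71.2 and 96.0 to 150 and 136. At chr11:103005375-103020800, 1 probe on each strand was measured, and F was lower with a mean of -1.14 while R was higher with 0.64. With normexp and loess those means were -0.41 and 0.42. At chr11:69106907-69112857 all 5 R probes were lower, with a mean of -0.77 (-0.48 with normexp and loess), and the F mean of 0.16 came from 1 rising probe beside 3 with negative means.

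That rising probe, in the nested name chr11:69107652-69108979, read 32.5 and 23.5 in WT, not well above background, and 136 and 116 with overexpression, at least 2.00-fold higher (limma adjusted p = 0.00023). The highest ratios of all members were of this kind. The strand R probe of chr11:52463475-52485075 went from 7.99 and 8.96 to 86.9 and 71.0, at least 1.60-fold, and the strand F probe of chr11:22659730-22699427 from 16.2 and 18.5 to 118 and 111, at least 2.04-fold. These 3 passed the filter through overexpression alone, so it follows from the filter that their overexpression signals lay above those of WT. The size of the rise is known only as a bound. The adjusted p of such a probe rests in part on WT signals that were not well above background. Of the 9 members at least 2-fold higher on both arrays, 4 were not above background in WT, and of the 31 at least 2-fold lower, 11 were not with overexpression.

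Smaller rises among the highest members were seen in 4 more loci. The strand F probe of chr11:95483973-95490751 was at least 1.36-fold higher, and a second probe of that name rose from 45.8 and 37.1 to 69.9 and 61.5. At chr11:116936834-116948799 on strand R 3 of 7 probes were higher and 0 lower, and the highest was a bound of at least 1.31-fold. The strand F probe of chr11:35810031-35810205 rose from 116 and 90.4 to 214 and 193. At chr11:68200716-68214458 the arrays disagreed in size: the highest R probe had log2 ratios of 0.43 and 1.66, so its rise was mostly that of replicate 2. It too was not well above background in WT, which makes it a bound of at least 1.38-fold.

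Among the lowest members visible in both conditions, the strand R probe of chr11:22510175-22522025 had the largest fall. It read 2500 and 2890 in WT and 561 and 677 with overexpression, a 4.36-fold fall with log2 ratios of -2.15 and -2.09 (mean -2.12 ± 0.043 SD, n = 2; limma adjusted p = 0.00019). The other 2 R probes of the name were lower too, with -0.99 and -0.90. Of the 4 F probes, one fell from 1130 and 1390 to 413 and 502, one rose from 222 and 171 to 274 and 246, and the others were not called. Strand F of this name therefore held opposite calls.

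At chr11:87872568-87880978 all 6 measured probes were lower, 2 on strand F and 4 on strand R, with means from -1.53 to -0.61. The lowest, on strand F, read 518 and 544 in WT and 173 and 196 with overexpression. This locus lies in the window with the lowest median. A neighbour in that window, chr11:82588507-82594501, had 6 of 7 probes lower over both strands, an R probe from 3050 and 3700 to 2020 and 1980.

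At chr11:33414450-33450750 10 of 14 probes were lower and 0 higher, and F lay below R, with means of -0.94 and -0.45. The lowest F probe fell from 483 and 474 to 169 and 154, and an R probe of the same name was not called, with 385 and 459 in WT and 315 and 394 with overexpression (adjusted p = 0.086 by limma). At chr11:117835849-117842574 7 of 10 probes were lower, with a mean of -0.70 (-0.37 with normexp and loess, 6 lower). Its lowest, on strand F, went from 91.0 and 121 to 34.5 and 31.1, at least 1.55-fold. At chr11:55315017-55322092 7 of 11 were lower and 2 higher, and the lowest, on strand R, was at least 1.28-fold lower.

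Other loci with many probes moved less or in part. At chr11:70196232-70203335 8 of 10 were lower, among them all 3 of the nested name chr11:70201624-70203335, whose log2 ratios on replicate 2 (mean -1.32) were larger in size than on replicate 1 (mean -0.84). At chr11:50994911-51050704 8 of 18 were lower and 1 higher (12 and 2 with normexp and loess). At chr11:48603904-48611829 7 of 8 were lower by small steps, with no mean below -0.61. At chr11:69184157-69201732, which has 11 names, the F mean was 0.13 with 0 of 9 lower and the R mean -0.38 with 6 of 11 lower. With normexp and loess the F mean was -0.0026 and the R mean -0.26, again with 0 and 6 lower. At chr11:6421951-6429173 the calls were also on 1 strand, with 4 of 6 R probes lower and 0 of 9 F probes called. With normexp and loess 2 R probes were lower and 1 F probe was higher.

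Some loci and some bright probes gave no call. None of the 7 measured probes of chr11:49932129-49938154 was called. Their WT signals, as means of the 2 arrays, ran from 49.7, near the edge of the filter, to 918. Among the 5 brightest members 1 was called. The F and R probes of chr11:19778600-19815950 read 17700 and 21000, and 24300 and 33900, in WT, and 17900 and 17500, and 27000 and 28800, with overexpression (adjusted p = 0.42 and 0.81 by limma). Of 2 bright F probes of chr11:22681800-22707775, one was higher, from 22500 and 27800 to 33100 and 37700 (adjusted p = 0.012), and the other was not, from 22600 and 24600 to 23100 and 23800 (adjusted p = 0.97). The brightest R probe of chr11:60728207-60745369 went from 22000 and 24000 to 26800 and 29900 (adjusted p = 0.052), while 3 of the 4 other measured R probes of that name were lower. At the far end of the named stretches, chr11:120041124-120052299 and chr11:120079199-120130099 had 0 lower calls, and the means of the first ran up to 0.88 (0.32 with normexp and loess, also with 0 lower).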

How the data were processed

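The members and lists were chosen with earlier results of these data known. Per the file headers, the authors used Agilent Feature Extraction 11.5.1.1 on their scans, and its deposited processed intensity values are background-subtracted and dye-normalized; the deposited log10 ratio is that of processed Cy5 over Cy3, and per the labels' protocols Trizol total RNA was amplified linearly. The deposited series table holds log2 ratios of WT over overexpression: set against the scanner ratios it correlated at -1 with a slope of -1, and its column medians were -0.00742 and 0.0624. Flags of 0 or 1 (other values) were used as deposited.

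The log2 ratio of processed signals was computed per probe, with copies averaged and outlier-flagged spots (269 and 313 of 62976) left out, and tested against 0 with limma 3.58.1 under R 4.3.3 (two-sided, by lmFit with an intercept alone and eBayes). P-values were adjusted by Benjamini and Hochberg's method over 38472 measured probes, with 1 residual and 4.62 prior degrees of freedom. The number of arrays limits the precision. On simulated data with 200 of 38472 probes changed (10 draws), the fit recovered 1% at a log2 change of 0.5, 81.2% at 1 and 100% at 2 and 4. False calls were a median of 9.73% of calls. In the data far more probes were called, 22.8% higher and 22.7% lower, and smaller changes passed the threshold. The simulated shares therefore do not carry over to the calls reported here. Bounds ("at least N-fold") compare the bright group's mean with the dim group's, the dim signal set to at least the lowest signal well above background, per channel after loess and Aquantile normalization, and are open to dye bias. Probes named in the text were the 10 highest and 10 lowest calls of one sign on both arrays (1 per locus), the 6 loci with most measured probes, 6 with the largest strand differences and the 5 brightest; the loci chr11:97505439-97522274, chr11:97457180-97487074, chr11:82588507-82594501, chr11:70196232-70203335, chr11:48603904-48611829, chr11:49932129-49938154, chr11:120041124-120052299 and chr11:120079199-120130099 and the named long noncoding RNA genes were chosen after their values were seen. Gene-named probes were placed by RefSeq accession (26756 of 39487 matched 1 gene, GRCm38.p6, chromosome only). Alternatives tried were normexp (offset 50) with loess, median centring, other background filters, kept outliers, a trended prior, the deposited series table, other units of counting and each array alone.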

Additional observations from a re-analysis of the deposited data

How the results depend on the processing

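For the 25 probes named by rule, 159 of 164 retests kept direction and side of the threshold, 3 became called and 0 lost a call. The 25 retests with the deposited series table could not differ, as it holds the same ratios. Most of these probes were chosen as the most extreme calls, so the count does not describe the other members. With normexp and loess 2 bright probes with no call in either setting changed sign, chr11:19778600-19815950 on strand R from -0.04 to 0.05 and chr11:22681800-22707775 on strand F from -0.0048 to 0.032. Averaging the probes of a name left 30 of 156 names higher and 53 lower. At least 2-fold on both arrays were 3 higher and 11 lower with normexp and loess, 5 and 19 when both channels had to be well above background, and 15 higher with no filter. With 1 array left, counts past 2-fold ran from 11 to 17 higher and from 35 to 63 lower, the 63 without replicate 1. The median of the members was -0.15 with normexp and loess, -0.11 with no filter, -0.082 with 1 value per merged locus, and between -0.23 and -0.18 with 1 array. Its difference from other chromosomes was -0.24 with normexp and loess, -0.33 with both channels well above background, -0.14 with no filter and -0.46 for gene-named probes. The cause of these shifts was not tested, except that filters and units of counting change which values enter. The share of members called lower ran from 26.5% with no background filter to 42.7% with normexp and loess. Of all probes, 14.9% and 27.3% were called lower in those 2 settings. Each value is a ratio within 1 array, so both conditions were paired by array in every fit, and no other block was fitted. Probes near background have ratios of little precision.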
